A study of Oryza sativa Japonica Group with 6 samples.

Results

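Shoots of rice seedlings that had been re-watered for 24 h after drying were compared with shoots taken at the end of the drying. All seedlings were wild-type Oryza sativa ssp. japonica, cultivar Nipponbare, raised on sterile medium under continuous light. In the dehydration group, seedlings aged 10 days were air-dried for 8 h. In the rehydration group, seedlings were dried in the same way for 8 h and then given water for 24 h, and they were 11 days old at sampling. Untreated seedlings aged 10 days formed the control group, whose values are given beside the comparison. Each group had 2 libraries, and each library came from pooled shoots. The comparison used 4 of the 6 libraries of the series, namely both dehydration and both rehydration libraries. Re-watering, the time that passed and the older age of the rehydrated seedlings cannot be told apart. The study describes the re-watered shoots as a mixture of recovered and damaged tissue.

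Expression was given as RPKM, read numbers scaled to the length of the transcript and to the mapped reads of the library, for each transcript model of the rice genome annotation. The comparison took transcripts that reached 1 RPKM in 2 or more of the 4 libraries, which were 24728 of the 66153 in the table and belonged to 19554 loci. A transcript was called up-regulated or down-regulated when limma gave an adjusted p-value under 0.01 and the fold change between rehydration and dehydration was over 2. Fold changes are on the log2(RPKM + 1) scale, are positive when rehydration was higher, and are given with their standard error (SE). This scale understates the change of transcripts with low values.

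Loss of water closes stomata and brings photosynthesis to a stop, and the hormone abscisic acid (ABA) accumulates in the leaf. ABA acts through receptors that inhibit protein phosphatases 2C, which frees kinases of the SnRK2 family to activate bZIP transcription factors, and these raise genes for protective proteins such as late embryogenesis abundant (LEA) proteins and dehydrins. Nuclear genes for the chloroplast and for cell expansion are typically repressed during such stress. When water returns, ABA is broken down, and growth and photosynthesis can resume.

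The library depths, read from the steps between the lowest RPKM values, of the other libraries lay between 86.2% and 99.4% of that of control replicate 1. The number of transcripts above 0 was 29992 and 31877 in the dehydration libraries and 32316 and 32494 in the rehydration libraries. The tissue label was checked with 6 leaf transcripts, including 3 for the Rubisco small subunit. Their summed RPKM was 697 and 1806 in the dried shoots, 15629 and 12039 in the re-watered shoots and 19173 and 14046 in the control. The markers of the shoot were thus present in all libraries, and both dehydration libraries were below all others. Of 2 nitrate uptake genes used as root markers, OsNRT2.3 and OsNAR2.2, the summed RPKM was 0.255 and 1.61 after dehydration and 9.06 and 16.1 after rehydration, low beside the shoot markers. The part of root tissue in any result was not tested. In whole shoots, fewer cells of a type and less RNA per cell cannot be told apart.

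After re-watering, far more transcripts were up-regulated than down-regulated relative to the dehydrated shoots. A total of 1270 transcripts (5.14% of those tested) were called higher and 316 (1.28%) lower, together 1586 (6.41%). The up-regulated transcripts were at low levels in the dried shoots, with a median of 3.82 RPKM, and reached a median of 24.5 RPKM after re-watering, where the control had 29.5 RPKM. The down-regulated transcripts had a median of 55.4 RPKM in the dried shoots and 12.2 RPKM after re-watering, where the control had 4.19 RPKM. The median log2 fold change was 2.27 among the up-regulated and -1.92 among the down-regulated transcripts, and 825 and 148 of them passed a log2 fold change of 2 in size. Since a call needs a fold over 2, these sizes follow in part from the selection. A further 613 transcripts with a log2 fold change of at least 2 in size were not called.

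These calls rested on the spread estimated over all 6 libraries with 3 residual degrees of freedom. When only the 4 libraries compared entered the fit, no transcript passed an adjusted p-value of 0.01, although 4821 were higher and 1675 lower at an unadjusted p-value under 0.05 with a fold over 2. The control libraries do not enter the fold changes, which were therefore the same in this fit. All 1586 transcripts then had an adjusted p-value under 0.05. Leaving out either control library or either rehydration library also ended every call, and without dehydration replicate 1 and without dehydration replicate 2 the counts of higher and lower transcripts were 260 and 20, and 1472 and 200. The split of the calls depended on scaling as well, since 80.1% of them were higher with the RPKM as listed, 63.6% (879 higher, 503 lower) after median-ratio scaling and 70.9% (1101 higher, 451 lower) after quantile normalization. Over all transcripts tested, the median log2 fold change was 0.22 with the RPKM as listed, -0.04 after median-ratio scaling and -0.08 after quantile normalization, so that a change below is best read against this shift.

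**Figure D1:**
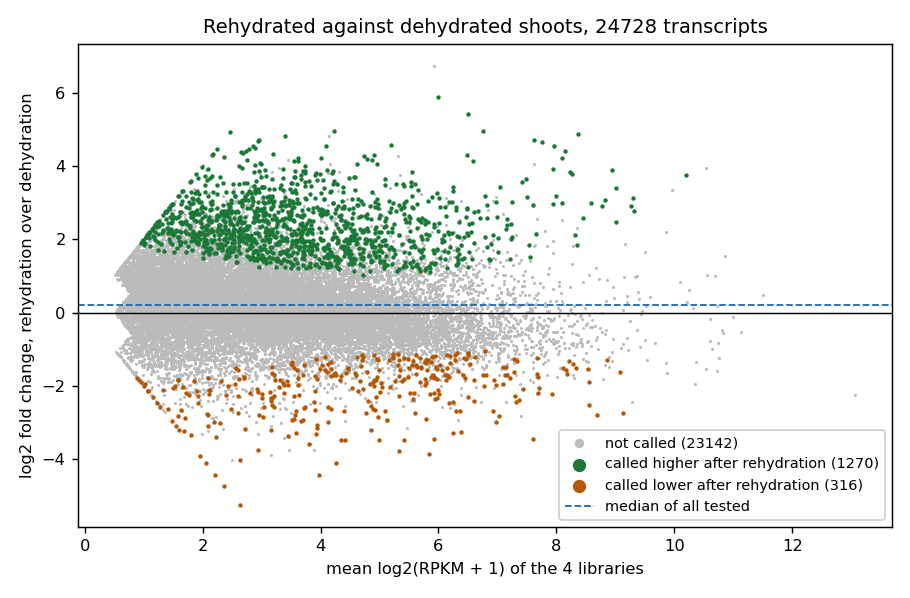
Each point is 1 transcript, with its mean log2(RPKM + 1) over the 4 libraries on the x axis and its log2 fold change of rehydration over dehydration on the y axis. The 1270 transcripts called higher are green, the 316 called lower are orange, and the dashed line marks the median of all 24728 tested transcripts, 0.22.

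Abundant transcripts were called more often in both directions. Among transcripts with a mean under 2 RPKM, 31 of 4908 were higher and 7 lower, whereas among the 846 with a mean of 100 RPKM or more, 89 were higher and 56 lower. The filter itself also favoured some calls. There were 1997 transcripts that passed it through the rehydration libraries alone, of which 206 were called higher and 0 lower, and 459 that passed through the dehydration libraries alone, of which 0 were called higher and 41 lower. Of the 18128 transcripts with at least 1 RPKM in all 4 libraries, 935 were called higher and 268 lower.

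Functions were read from the annotations in the supplementary tables of the study. These cover mostly genes that the study selected on these samples and genes that respond to hormones in microarrays of other rice plants. The table of changed transcripts was at hand only in part. Many of the genes taken from it are ones that the study lists as raised by drying. Falls in lists built on these annotations are therefore not independent evidence. In lists, each locus was represented by its most abundant transcript. Over all loci, 5.92% were called higher and 1.36% lower, and over the 2561 loci with a named function 7.38% and 5.62%, with a median log2 fold change of -0.50. Of these, the 1081 loci in the hormone arrays had 11.9% higher and 6.57% lower, and the 1480 loci known from the other tables alone had 4.05% and 4.93%. Each list below is a description to be read beside these shares.

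**Figure D2:**
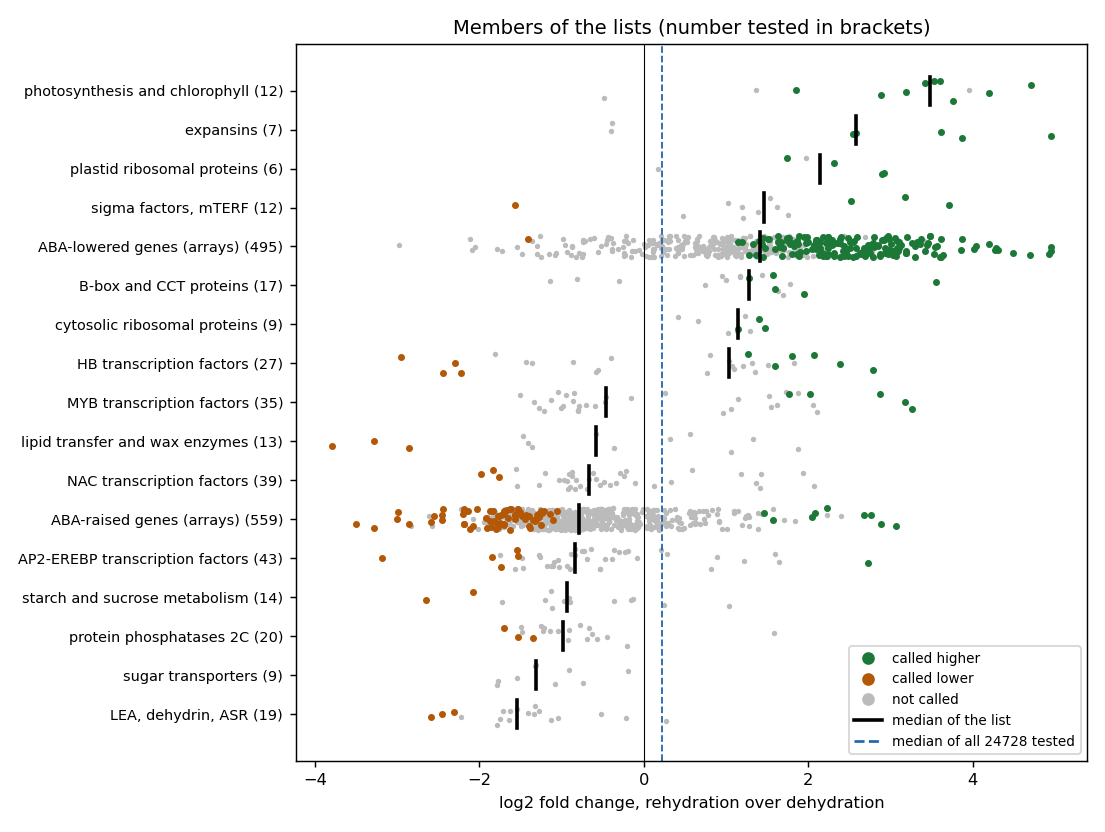
Each point is 1 member of a list, placed by its log2 fold change of rehydration over dehydration, with members called higher in green, called lower in orange and not called in grey. The black bars mark the median of each list, from 3.47 for photosynthesis and chlorophyll to -1.54 for LEA, dehydrin and ASR proteins, and the dashed line marks the median of all tested transcripts, 0.22.

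Photosynthesis was the function with the highest median among the lists shown. Of 12 tested transcripts for photosynthesis and chlorophyll, 9 were up-regulated, none was down-regulated and the median log2 fold change was 3.47. In 8 of the 12 the annotation came from the hormone arrays, and 6 of these were up-regulated. The array tables hold only genes that a hormone changed, and the PsbP family protein LOC_Os01g59090 is there as lowered by ABA. The other 4 come from a table of transcripts that the study chose on these samples, so their direction is not independent evidence. The summed level of the 12 transcripts was 723 and 1834 RPKM after dehydration and 15714 and 12465 RPKM after rehydration, beside 19216 and 14822 RPKM in the control.

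The small subunit of Rubisco, the enzyme that fixes carbon dioxide, was encoded by several of these transcripts. For LOC_Os12g19381 the level was 184 and 552 RPKM after dehydration and 5019 and 3720 RPKM after rehydration (log2 fold change 3.75 ± 0.58 SE, adjusted p = 0.00953). LOC_Os12g19470 was at 15.9 and 86.7 RPKM in the dried and at 1158 and 876 RPKM in the re-watered shoots (4.71 ± 0.72 SE, adjusted p = 0.00948). The most abundant, LOC_Os12g17600, was at 202 and 703 RPKM after dehydration and at 6620 and 5147 RPKM after rehydration, with an adjusted p-value of 0.0113 that missed the threshold. Dehydration replicate 2 was the higher of the dried libraries for all of these, and the groups did not overlap. These transcripts share much of their sequence, and how reads were divided among near-identical copies is not given in the sources used here.

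Transcripts for light capture and electron transport rose with them. The chlorophyll A-B binding protein LOC_Os11g13890, an antenna protein, was at 34.6 and 74.0 RPKM after dehydration and at 1367 and 1063 RPKM after rehydration (4.55 ± 0.40 SE, adjusted p = 0.00409). Ferredoxin I (LOC_Os08g01380), which passes electrons on from photosystem I, was at 103 and 238 RPKM and at 1719 and 1666 RPKM (3.42 ± 0.42 SE, adjusted p = 0.00597). A protein of the PsbP family of the oxygen-evolving complex of photosystem II (LOC_Os01g59090) rose from 1.81 and 4.79 RPKM to 52.2 and 43.7 RPKM (3.60 ± 0.36 SE, adjusted p = 0.00432). In each, both rehydration libraries were several times above both dehydration libraries. The subunit XI of photosystem I (LOC_Os12g23200) changed less, from 159 and 182 RPKM to 654 and 583 RPKM (1.85, adjusted p = 0.00575).

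Transcripts for chlorophyll synthesis and carbon metabolism were among them as well. Protochlorophyllide oxidoreductase (LOC_Os10g35370), the light-dependent step of chlorophyll synthesis, was at 4.69 and 6.395 RPKM after dehydration and at 132 and 104 RPKM after rehydration (4.19 ± 0.21 SE, adjusted p = 0.00225), beside 123 and 118 RPKM in the control. A transcript annotated as glyceraldehyde phosphate dehydrogenase (LOC_Os04g38600) was at 9.85 and 33.9 RPKM and at 684 and 532 RPKM (4.96 ± 0.53 SE, adjusted p = 0.00473). The alpha subunit of the Rubisco binding protein (LOC_Os12g17910), a chaperonin that assembles Rubisco, rose from 8.68 and 14.8 RPKM to 209 and 151 RPKM (3.85 ± 0.30 SE, adjusted p = 0.00363). All of these were within the range of the control or close to it after re-watering. The single member of the list with a fold change below 0 was a transcript similar to a Rubisco protein (LOC_Os02g05830_1), at 6.52 and 4.58 RPKM after dehydration and 3.999 and 3.26 RPKM after rehydration, which was singled out after its values were seen and was not called.

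Several nuclear transcripts for protein synthesis in the chloroplast were up-regulated. Of 6 nuclear transcripts for plastid ribosomal proteins, 4 were up-regulated and none down-regulated, with a median log2 fold change of 2.14, and all 6 came from the hormone arrays. The protein L21 of the large subunit (LOC_Os02g15900) was at 15.8 and 33.1 RPKM after dehydration and at 186 and 169 RPKM after rehydration (2.89 ± 0.34 SE, adjusted p = 0.00539). The protein L4 (LOC_Os03g15870) was at 6.85 and 12.8 RPKM and at 88.9 and 68.4 RPKM (2.92 ± 0.32 SE, adjusted p = 0.00481). A plastid-specific protein of the small subunit, PSRP-1 (LOC_Os03g63950), was at 156 and 154 RPKM in the dried and 203 and 150 RPKM in the re-watered shoots. Its groups overlapped and no change was called. PSRP-1 entered as a gene that ABA raises, whereas L21 and L4 entered as genes that ABA lowers.

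Sigma factors, which guide the bacterial-type RNA polymerase of the plastid to its promoters, and mTERF proteins, which bind organellar nucleic acids, were taken as 1 list of 12. Of these, 3 were up-regulated and 1 was down-regulated, with a median log2 fold change of 1.46. Most members of this list come from tables that the study made on these samples, and of the 4 in the hormone arrays 0 were called higher and 1 lower. The sigma factor LOC_Os08g14450 was at 1.16 and 3.99 RPKM after dehydration and at 44.3 and 40.01 RPKM after rehydration (3.71 ± 0.41 SE, adjusted p = 0.0048). The mTERF protein LOC_Os03g57149 was at 0.573 and 1.43 RPKM and at 17.8 and 15.6 RPKM (3.18 ± 0.29 SE, adjusted p = 0.00409). A different sigma factor, LOC_Os06g04889, went the other way, from 99.7 and 130 RPKM in the dried to 31.8 and 44.3 RPKM in the re-watered shoots (-1.57 ± 0.23 SE, adjusted p = 0.00857), beside 26.6 and 29.6 RPKM in the control.

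**Figure D3:**
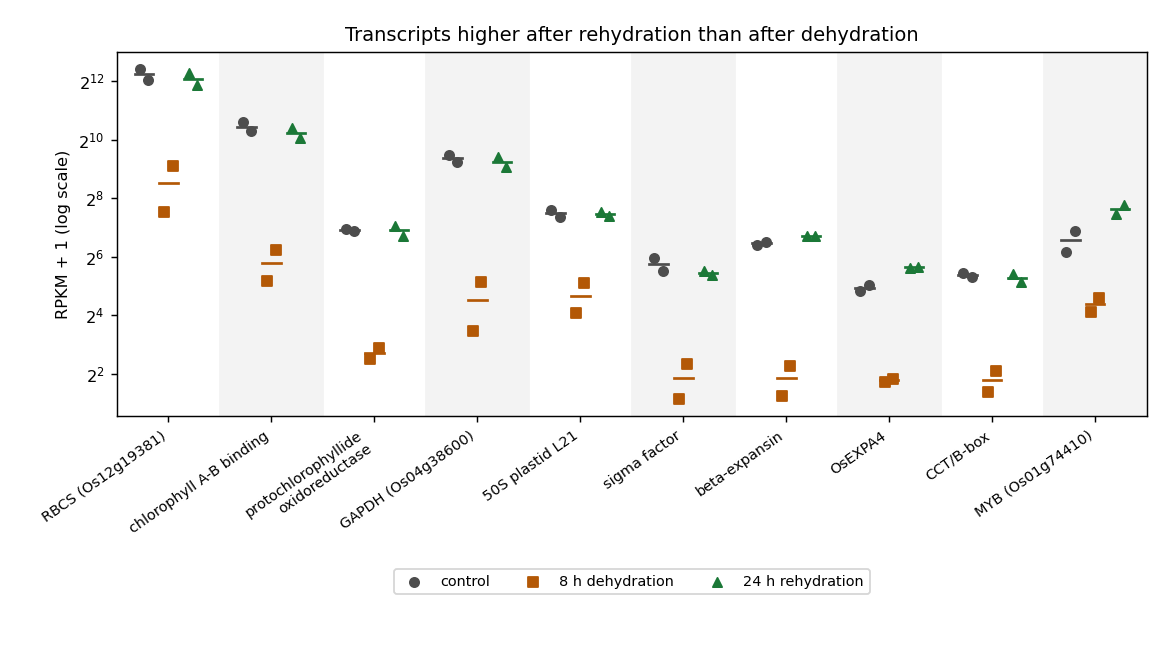
RPKM + 1 on a log scale for 10 up-regulated transcripts in each library of the control, dehydration and rehydration groups, with points for libraries and bars for group means; RBCS is the Rubisco small subunit and GAPDH glyceraldehyde phosphate dehydrogenase. In every transcript shown, both rehydration libraries lie above both dehydration libraries.

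Cytosolic ribosomal proteins showed smaller differences. Of 9 tested transcripts named as proteins of the cytosolic ribosome, all had a fold change above 0, the median log2 fold change was 1.15, 3 were up-regulated and none was down-regulated. All 9 came from the hormone arrays. The protein S25 (LOC_Os08g44480) was at 38.6 and 42.8 RPKM after dehydration and at 134 and 97.4 RPKM after rehydration (1.47 ± 0.21 SE, adjusted p = 0.00776), where the control had 82.2 and 88.2 RPKM. The proteins L22-2 (LOC_Os03g22340) and S13 (LOC_Os08g02410) had log2 fold changes of 1.40 ± 0.21 SE and 1.15 ± 0.17 SE. After median-ratio scaling none of these 3 passed the threshold, and the median of the list was 0.83.

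Expansins, which loosen the cell wall and allow cells to grow, were among the transcripts with the largest gains. Of 7 tested, 5 were up-regulated and none down-regulated, with a median log2 fold change of 2.58, and 6 of the 7, including all 5 that were called, came from the hormone arrays. A beta-expansin (LOC_Os10g40720) was at 1.34 and 3.79 RPKM after dehydration and at 103 and 103 RPKM after rehydration (4.96 ± 0.33 SE, adjusted p = 0.00349), beside 84.1 and 88.9 RPKM in the control. A neighbouring locus, LOC_Os10g40700, was at 0.142 and 0.258 RPKM in the dried, 13.3 and 14.1 RPKM in the re-watered and 5.51 and 3.21 RPKM in the control shoots (3.62 ± 0.30 SE, adjusted p = 0.00409). LOC_Os10g40700, counted among the 5, passed the filter through the rehydration libraries alone, so that only a rise could be called. The alpha-expansin OsEXPA2 (LOC_Os01g60770) was at 2.66 and 4.47 RPKM and at 24.4 and 27.1 RPKM (2.58 ± 0.34 SE, adjusted p = 0.00647). The most abundant expansin of the dried shoots, LOC_Os03g04020, did not take part, at 114 and 99.4 RPKM after dehydration and 86.6 and 74.6 RPKM after rehydration (adjusted p = 0.228). Xyloglucan endotransglycosylases, which remodel wall polymers, had no call among 3 tested and a median log2 fold change of -0.70.

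Some zinc finger proteins related to light were up-regulated. B-box and CCT proteins, many of which act in light signaling and flowering time, had 5 up-regulated and no down-regulated member among 17, with a median log2 fold change of 1.27, and 3 of the 17 had a fold change below 0. Nearly all come from the tables of transcription factors that the study chose on these samples, and 2 were in the hormone arrays. The CCT/B-box protein LOC_Os06g15330 was at 1.60 and 3.24 RPKM after dehydration and at 41.7 and 34.3 RPKM after rehydration (3.55 ± 0.28 SE, adjusted p = 0.00363). The B-box protein LOC_Os02g39360 was at 27.9 and 41.4 RPKM and at 126 and 142 RPKM (1.95 ± 0.23 SE, adjusted p = 0.00546). Both were near their control levels after re-watering, 42.1 and 38.2 RPKM and 114 and 124 RPKM.

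Other families of transcription factors were divided. Members of the MYB, HB, bZIP, WRKY and heat shock factor families come mostly from the tables that the study chose on these samples. Among 35 MYB proteins 5 were up-regulated and none was down-regulated, yet the median log2 fold change of the family was -0.47. The MYB protein LOC_Os01g74410 was at 16.4 and 23.0 RPKM after dehydration, 174 and 219 RPKM after rehydration and 71.2 and 116 RPKM in the control (3.26 ± 0.30 SE, adjusted p = 0.00409). Both of its rehydration libraries were therefore above both control libraries as well. Model 1 of another, LOC_Os11g47460, a locus with 4 models, was listed at 0 in both dehydration libraries and at 8.23 and 7.85 RPKM after rehydration, and how reads were divided among the models is not known here. Homeobox (HB) proteins had 6 up-regulated and 4 down-regulated members among 27. The up-regulated LOC_Os06g01934, a POX domain protein, was at 0.680 and 2.09 RPKM and at 12.2 and 17.6 RPKM (2.78 ± 0.34 SE, adjusted p = 0.00597). In contrast, the homeobox leucine zipper protein LOC_Os09g21180 was at 84.9 and 110 RPKM in the dried and 11.8 and 11.5 RPKM in the re-watered shoots (-2.95 ± 0.24 SE, adjusted p = 0.0039).

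AP2-EREBP and NAC proteins, families with many regulators of drought responses, had fold changes below 0 in 35 of 43 and 30 of 39 tested members. Over all tested transcripts 59.95% were above 0, but loci with a named function outside the hormone arrays had a median of -0.58. The share called lower was 11.6% for AP2-EREBP and 7.69% for NAC proteins, beside 5.62% of all loci with a named function. Of 43 AP2-EREBP proteins 5 were down-regulated and 1 was up-regulated (median -0.83), and of 39 NAC proteins 3 were down-regulated and none up-regulated (median -0.67). Almost all of them come from the tables of transcription factors chosen on these samples. The NAC protein LOC_Os11g03300 was at 266 and 235 RPKM after dehydration and at 68.8 and 57.4 RPKM after rehydration (-1.98 ± 0.18 SE, adjusted p = 0.00409), beside 3.43 and 3.83 RPKM in the control. LOC_Os12g03040, also a NAC protein, was at 190 and 177 RPKM and at 50.8 and 50.5 RPKM (-1.83 ± 0.16 SE, adjusted p = 0.00409), beside 6.19 and 6.28 RPKM. Their levels had thus fallen but lay above both control libraries. The AP2 protein LOC_Os03g64260 was at 16.4 and 21.4 RPKM in the dried and at 1.13 and 1.23 RPKM in the re-watered shoots (-3.18 ± 0.34 SE, adjusted p = 0.00473). The opposite change was seen in the AP2 protein LOC_Os09g11480, from 5.002 and 5.72 RPKM to 41.2 and 41.1 RPKM (2.73 ± 0.40 SE, adjusted p = 0.00846).

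Among bZIP proteins, 2 of 29 were down-regulated (6.90%) and 1 was up-regulated (3.45%), beside 5.62% and 7.38% of all loci with a named function. LOC_Os02g09830 fell from 37.3 and 24.6 RPKM to 3.36 and 3.66 RPKM (-2.80 ± 0.31 SE, adjusted p = 0.00485), and LOC_Os02g03960 rose from 1.63 and 2.69 RPKM to 16.9 and 15.6 RPKM (2.47 ± 0.23 SE, adjusted p = 0.00409). No WRKY transcript passed the test among the 27 tested as the most abundant of their locus, and none of 8 heat shock factors did, all 8 of which had a fold change below 0 (median -0.62).

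Most protective proteins were lower after re-watering, but few passed the test. Of 19 tested LEA, dehydrin and ASR transcripts, 3 were down-regulated and none up-regulated, and the median log2 fold change was -1.54. In 17 of the 19 both dehydration libraries were above both rehydration libraries, which was the case for 24.2% of all tested transcripts, whereas the reverse, found in 43.1% of all, occurred in none. In 15 of the 19 the annotation came from the hormone arrays. Their summed level was 9075 and 9110 RPKM after dehydration, 3240 and 3515 RPKM after rehydration and 539 and 505 RPKM in the control.

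The 3 members that passed were of very low level in the control. The dehydrin DHN1 (LOC_Os01g50700) was at 21.8 and 21.4 RPKM after dehydration and at 2.90 and 2.64 RPKM after rehydration (-2.58 ± 0.30 SE, adjusted p = 0.00534). LEA protein 1 (LOC_Os03g20680) was at 66.9 and 68.3 RPKM and at 13.2 and 12.5 RPKM (-2.31 ± 0.19 SE, adjusted p = 0.00409), beside 0.491 and 0.401 RPKM in the control. The remaining LEA transcript, LOC_Os01g50910, had its main model at 394 and 350 RPKM in the dried and at 80.6 and 55.6 RPKM in the re-watered shoots (-2.45 ± 0.24 SE, adjusted p = 0.0043). The most abundant members were not called: a water stress induced protein (LOC_Os03g45280) was at 1974 and 3293 RPKM and at 724 and 1057 RPKM (adjusted p = 0.0312), and a dehydrin (LOC_Os02g44870) at 2045 and 2171 RPKM and at 758 and 915 RPKM (adjusted p = 0.0215). Their groups did not overlap either.

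Protein phosphatases 2C are a family in which some members hold ABA signaling in check. The list was made by annotation and does not tell these members apart. Of 20 tested transcripts 19 were lower by fold change, with 3 called lower, none called higher and a median log2 fold change of -0.99. The hormone arrays held 10 of the 20, and some, such as LOC_Os01g46760, are ones that the study lists as raised by drying in these samples. The most abundant, LOC_Os06g48300, was at 579 and 519 RPKM after dehydration and at 200 and 180 RPKM after rehydration (-1.52 ± 0.22 SE, adjusted p = 0.00813), beside 3.51 and 5.40 RPKM in the control. PP2C9 (LOC_Os09g15670) was at 93.6 and 91.9 RPKM and at 32.4 and 39.6 RPKM (-1.35 ± 0.19 SE, adjusted p = 0.00764). For LOC_Os06g48300 both rehydration libraries were therefore far above both control libraries.

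Genes that respond to ABA in microarrays of other rice plants, lists that do not rest on these samples, were called mostly in the direction opposite to their ABA response, although most members were not called. Of 495 tested genes that ABA lowers, 169 were up-regulated and 1 was down-regulated, with a median log2 fold change of 1.41. Of 559 tested genes that ABA raises, 69 were down-regulated and 9 were up-regulated, with a median of -0.79. These were 34.1% and 12.3% of the tested members, where 5.92% of all loci were called higher and 1.36% lower. Among loci with a named function in the hormone arrays, the shares were 11.9% higher and 6.57% lower. Genes that auxin (IAA) lowers had 14 up-regulated and 1 down-regulated member among 69, and those that auxin raises had 16 down-regulated and 1 up-regulated member among 171. The ABA and IAA lists share genes, so these counts are not separate observations. Members of the lists above are also among the genes that ABA lowers. Examples are the PsbP family protein, the plastid ribosomal proteins L21 and L4, and OsEXPA2. The rises in photosynthesis, plastid ribosome and expansin transcripts are therefore not separate from the rise of the ABA-lowered list. Genes that ABA raises likewise include the dehydrin DHN1, the LEA gene LOC_Os01g50910, the protein phosphatase 2C LOC_Os01g46760 and the sucrose synthase named below. Falls in protective protein, phosphatase 2C and sucrose synthase transcripts are thus not separate from the fall of the ABA-raised list.

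Genes that make ABA and its carotenoid precursors did not move as a unit. Of 15, 3 were up-regulated and 1 was down-regulated, in a list that the study chose on these samples. VDE (LOC_Os04g31040), violaxanthin de-epoxidase of the xanthophyll cycle, was at 1.73 and 5.75 RPKM after dehydration and at 29.2 and 27.8 RPKM after rehydration (2.78 ± 0.44 SE, adjusted p = 0.00994). One gene named BCH (LOC_Os04g48880), a beta-carotene hydroxylase, was at 5.96 and 7.97 RPKM and at 29.1 and 33.6 RPKM (2.03 ± 0.20 SE, adjusted p = 0.0043), and LCYE (LOC_Os02g09750), lycopene epsilon cyclase of the lutein branch, had a log2 fold change of 1.59 ± 0.24 SE. These 3 also serve the photosynthetic pigments. PSY3 (LOC_Os09g38320), a phytoene synthase at the entry of carotenoid synthesis, was at 91.2 and 124 RPKM and at 34.8 and 42.2 RPKM (-1.45 ± 0.21 SE, adjusted p = 0.00857).

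For other hormones few genes passed the test. The lists of hormone genes in this paragraph and the next hold genes that the study chose on these samples. In auxin signaling, 2 of 16 were up-regulated and 1 was down-regulated. IAA20 (LOC_Os06g07040), a repressor of the Aux/IAA family, was at 42.3 and 52.6 RPKM after dehydration and at 4.68 and 3.09 RPKM after rehydration (-3.32 ± 0.26 SE, adjusted p = 0.00383), beside 0.783 and 0.852 RPKM in the control. IAA10 (LOC_Os02g57250), of the same family, changed the other way, from 12.0 and 16.2 RPKM to 53.1 and 60.5 RPKM (1.94 ± 0.21 SE, adjusted p = 0.00473). The auxin response factor ARF8 (LOC_Os02g41800) rose from 1.03 and 0.871 RPKM to 4.90 and 5.87 RPKM (1.71 ± 0.26 SE, adjusted p = 0.00948).

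In cytokinin signaling the receptor HK3 (LOC_Os01g69920) and the response regulator RR21 (LOC_Os03g12350) were down-regulated, with log2 fold changes of -1.24 ± 0.16 SE and -1.27 ± 0.16 SE, and no other of the 12 genes passed. HK3 was at 138 and 125 RPKM after dehydration and at 55.3 and 54.4 RPKM after rehydration. In ethylene synthesis ACO1 (LOC_Os09g27820), the oxidase of the last step, fell from 55.9 and 85.7 RPKM to 21.5 and 23.6 RPKM (-1.58 ± 0.24 SE, adjusted p = 0.0093). None of the 8 jasmonate signaling genes was called, and all had a fold change below 0 (median -0.67). The paper reports JAZ genes as induced by drying in these samples, so this direction is not independent evidence. The repressor JAZ2 (LOC_Os10g25290) was at 249 and 245 RPKM in the dried and at 88.8 and 122 RPKM in the re-watered shoots (adjusted p = 0.0199). In jasmonate synthesis JMT2 (LOC_Os06g22440), named as a jasmonate methyltransferase, rose from 0.246 and 0.335 RPKM to 11.1 and 8.76 RPKM (3.08 ± 0.30 SE, adjusted p = 0.0043). JMT2 passed the filter through the rehydration libraries alone, so that only a rise could be called.

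Enzymes of nitrogen assimilation changed in both directions. Of 10 assimilation genes, 2 were up-regulated and 2 down-regulated, in a list that the study chose on these samples. OsNIR1 (LOC_Os01g25484), the plastid enzyme that reduces nitrite, was at 14.2 and 17.0 RPKM after dehydration and at 54.3 and 42.2 RPKM after rehydration (1.56 ± 0.21 SE, adjusted p = 0.00705). OsAAT1 (LOC_Os02g55420), an aspartate aminotransferase, was at 26.5 and 30.1 RPKM and at 106 and 80.2 RPKM (1.67 ± 0.20 SE, adjusted p = 0.00561). The plastid glutamine synthetase OsGS2 (LOC_Os04g56400) was at 101 and 209 RPKM and at 811 and 650 RPKM, which missed the threshold (adjusted p = 0.0131), as did OsFd-GOGAT (LOC_Os07g46460), the glutamate synthase that draws on ferredoxin (adjusted p = 0.0187). For all 4 of these genes the rehydration libraries were above the dehydration libraries.

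On the falling side, OsAS1 (LOC_Os03g18130), an asparagine synthetase, was at 363 and 391 RPKM after dehydration and at 73.2 and 69.0 RPKM after rehydration (-2.39 ± 0.24 SE, adjusted p = 0.00432), beside 28.9 and 18.6 RPKM in the control. OsNADH-GOGAT1 (LOC_Os01g48960), the glutamate synthase that draws on NADH, was at 135 and 163 RPKM and at 58.6 and 68.2 RPKM (-1.22 ± 0.19 SE, adjusted p = 0.00977). Of 16 nitrogen uptake genes, 1 was called: the ammonium transporter OsAMT1.1 (LOC_Os04g43070) rose from 5.88 and 11.6 RPKM to 36.5 and 40.2 RPKM (2.08 ± 0.30 SE, adjusted p = 0.00813). Among 5 nitrogen signaling genes OsMYB61 (LOC_Os01g18240) was up-regulated, from 0.966 and 1.61 RPKM to 6.59 and 6.83 RPKM (1.77 ± 0.24 SE, adjusted p = 0.00715), and was below its control level of 21.5 and 23.3 RPKM.

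Single genes of sugar and reserve metabolism were down-regulated. Of 14 tested starch and sucrose genes, 2 were down-regulated and none up-regulated (median -0.94). Sucrose synthase (LOC_Os03g22120), which cleaves sucrose, was at 417 and 303 RPKM after dehydration and at 92.4 and 75.1 RPKM after rehydration (-2.08 ± 0.22 SE, adjusted p = 0.00473). The alpha-amylase isozyme 3D (LOC_Os08g36910), a starch-degrading enzyme, was at 19.1 and 8.66 RPKM and at 1.25 and 1.21 RPKM (-2.64 ± 0.40 SE, adjusted p = 0.00919). A trehalose phosphate synthase (LOC_Os02g54820) was at 160 and 148 RPKM and at 45.4 and 47.7 RPKM (-1.70 ± 0.18 SE, adjusted p = 0.00476). Isocitrate lyase (LOC_Os07g34520), the glyoxylate cycle enzyme used when lipids are turned into sugar, had its most abundant model at 498 and 256 RPKM in the dried and at 49.9 and 38.2 RPKM in the re-watered shoots (-3.004 ± 0.456 SE, adjusted p = 0.00916).

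Sugar transporters were lower without passing the test. All 9 had a fold change below 0 with a median of -1.31, but none was called. In 8 of 9 both dehydration libraries were above both rehydration libraries, which was the case for 24.2% of all tested transcripts. The hormone arrays held 6 of the 9. The SWEET-type (MtN3) transporter LOC_Os02g19820 was at 143 and 182 RPKM after dehydration and at 58.8 and 51.2 RPKM after rehydration (-1.54 ± 0.27 SE, adjusted p = 0.0139), and a sucrose transporter (LOC_Os03g07480) at 154 and 107 RPKM and at 78.9 and 58.4 RPKM (adjusted p = 0.0492). The study lists both of these sugar transporters as raised by drying in these samples. Among 22 amino acid and peptide transporters 2 were down-regulated. The amino acid transporter LOC_Os02g09810 fell from 618 and 433 RPKM to 163 and 158 RPKM (-1.68 ± 0.25 SE, adjusted p = 0.00898), where the control had 11.5 and 16.2 RPKM.

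Single lipid transfer proteins, which carry lipids to the cell surface and the cuticle, gave some of the largest decreases. Of 13 tested lipid transfer and wax genes, 3 were down-regulated and none up-regulated, and 11 of the 13 came from the hormone arrays. The list was divided, with 5 members above 0 and 8 below. Its median of -0.59 was near the -0.50 of all loci with a named function. The lipid transfer protein LTP2P (LOC_Os06g49190) was at 100 and 220 RPKM after dehydration and at 10.7 and 8.99 RPKM after rehydration (-3.79 ± 0.38 SE, adjusted p = 0.00435). A protein similar to the lipid transfer protein LPT III (LOC_Os11g24070) was at 202 and 275 RPKM and at 21.6 and 25.2 RPKM (-3.28 ± 0.27 SE, adjusted p = 0.00409). The lipoxygenase LOC_Os03g49380, of a family that oxidises fatty acids, was at 129 and 80.1 RPKM and at 17.3 and 26.3 RPKM (-2.20 ± 0.34 SE, adjusted p = 0.00969), and it was the only one of 4 lipoxygenases to be called. All 4 had a fold change below 0, and only 1 of them was in the hormone arrays.

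**Figure D4:**
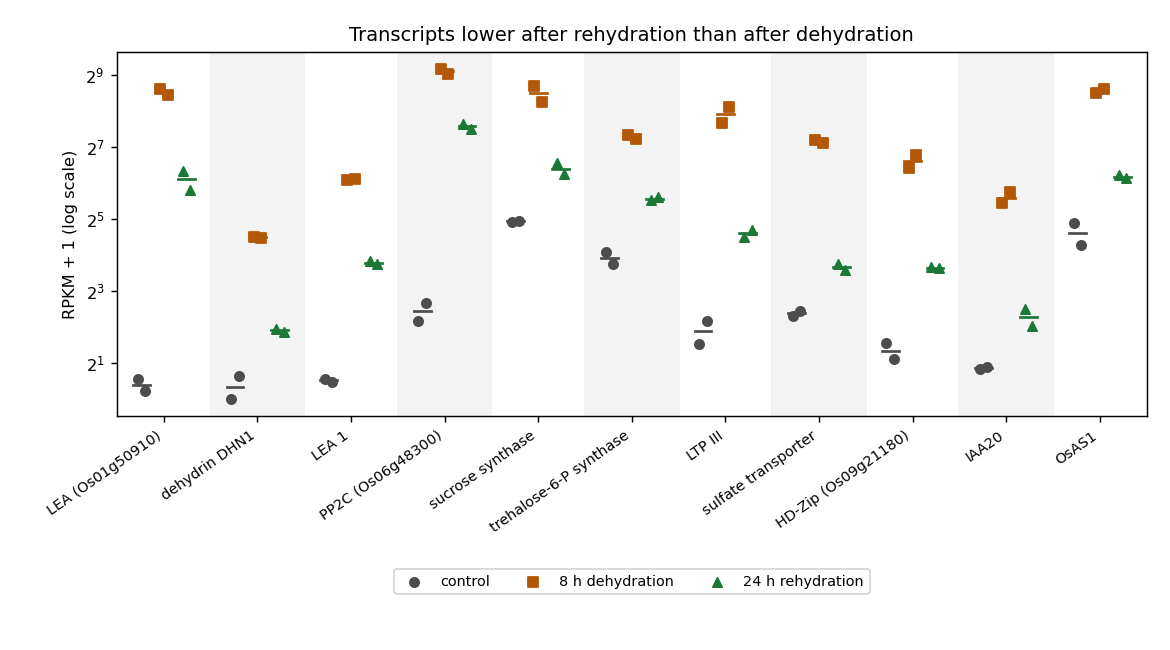
RPKM + 1 on a log scale for 11 down-regulated transcripts in each library of the control, dehydration and rehydration groups, with points for libraries and bars for group means. In every transcript shown, the rehydration libraries lie below both dehydration libraries and above both control libraries.

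Single genes outside these lists were also among the most changed. A sulfate transporter (LOC_Os01g52130) was at 146 and 138 RPKM after dehydration and at 12.5 and 11.2 RPKM after rehydration (-3.48 ± 0.17 SE, adjusted p = 0.00225). A glycine-rich cell wall protein (LOC_Os02g37480) was at 359 and 182 RPKM and at 19.3 and 34.5 RPKM (-3.26 ± 0.40 SE, adjusted p = 0.00589). The transcript with the highest mean level in the dried shoots encoded a jacalin-like lectin (LOC_Os01g24710), named after its values were seen, whose main model was at 26211 and 13549 RPKM and at 4170 and 3717 RPKM (adjusted p = 0.0162, not called). The other 3 models of this locus were called lower. On the rising side, an aminotransferase (LOC_Os02g02210) was at 13.9 and 2.87 RPKM in the dried and at 142 and 111 RPKM in the re-watered shoots (4.06 ± 0.59 SE, adjusted p = 0.00831). Its control level was 0.885 and 0.856 RPKM, so that it was highest after re-watering. A cytochrome P450 (LOC_Os02g02230) was listed at 0 in both dehydration libraries and was at 22.6 and 16.3 RPKM after rehydration and at 0 and 0.112 RPKM in the control.

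Stress proteins of other kinds had few calls. Of 26 heat shock proteins and chaperones, 2 were up-regulated (7.69%) and 1 was down-regulated (3.85%). These shares were near the 7.38% and 5.62% of all loci with a named function. An HSP20-like chaperone domain protein (LOC_Os07g33350) rose from 3.41 and 2.52 RPKM to 29.5 and 30.1 RPKM (2.97 ± 0.22 SE, adjusted p = 0.00363). The small heat shock protein 17.9 of class I (LOC_Os03g15960) fell from 174 and 98.9 RPKM to 33.8 and 25.9 RPKM (-2.11 ± 0.30 SE, adjusted p = 0.00777). Of 18 peroxidases 2 were up-regulated, among them a thioredoxin peroxidase (LOC_Os02g09940) at 0.171 and 1.09 RPKM after dehydration and at 44.1 and 26.4 RPKM after rehydration (4.49 ± 0.44 SE, adjusted p = 0.00429). Of 88 protein and receptor kinases 1 was up-regulated (1.14%) and 2 were down-regulated (2.27%), below the shares of loci with a named function. Of 20 ubiquitin and autophagy genes only autophagy protein 9 (LOC_Os03g14380) was called, at 63.2 and 50.01 RPKM and at 23.7 and 23.3 RPKM (-1.22 ± 0.18 SE, adjusted p = 0.00882).

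Some transcripts were listed at 0 in both libraries of a group and at 1 RPKM or more in both of the other. There were 280 such transcripts listed at 0 after dehydration, of which 54 were called higher, and 87 listed at 0 after rehydration, of which 17 were called lower. By this definition they passed the filter through 1 group alone, so the direction of these calls was fixed. Most of them, 200 and 74, belonged to loci with several models. An elongation factor P (LOC_Os11g02450), the most abundant of the first set and the product of a locus with 1 model, was at 32.2 and 26.9 RPKM after rehydration and at 35.7 and 25.1 RPKM in the control. A model annotated as S31 of the plastid ribosome (LOC_Os05g09400) was at 6.68 and 12.2 RPKM after rehydration. Of the second set, a chloride channel model (LOC_Os02g35190) was at 31.4 and 20.8 RPKM after dehydration, beside 3.09 and 4.40 RPKM in the control, and a NAC model (LOC_Os05g10620) was at 19.2 and 13.6 RPKM beside 0 and 0. At these 3 loci the most abundant model was another one, which was not called. A WRKY95 model (LOC_Os12g02440) was at 9.94 and 5.67 RPKM after dehydration and was called lower, but the sum over the models of its locus was not (log2 fold change 0.13, adjusted p = 0.679).

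A total of 601 called transcripts came from loci with several models. The sum over the locus, which contains the called model itself, was called the same way for 551 of them and the opposite way for 2. In 2 loci, models were called in opposite directions. At LOC_Os02g12480 model 6 was at 23.2 and 27.2 RPKM after dehydration and at 137 and 141 RPKM after rehydration, while model 9 was at 7.005 and 4.47 RPKM and at 0.144 and 0 RPKM. At LOC_Os06g17285 model 2 was listed at 0 in both dried libraries and was at 8.76 and 9.13 RPKM after re-watering, while model 1 was at 7.89 and 10.1 RPKM and at 0 and 0.103 RPKM. How reads shared by models were assigned is not given in the sources used here.

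Of 14 genes that were selected for qRT-PCR, 13 were tested here, 4 were up-regulated and 1 was down-regulated. The study chose them among its most significant genes in these libraries, as representatives of its expression clusters. The ubiquitin, MYB and hypoxia-responsive genes below represent a cluster that stayed high after re-watering. The GTPase-activating protein and OsWAK82 represent one that stayed low. Several genes with high levels in the dried shoots did not pass the test. A ubiquitin family gene (LOC_Os02g06640) was at 2239 and 2014 RPKM after dehydration and at 1950 and 1956 RPKM after rehydration, against 522 and 445 RPKM in the control (adjusted p = 0.796). A MYB gene (LOC_Os04g43680) was at 74.7 and 80.0 RPKM and at 56.0 and 85.9 RPKM (adjusted p = 0.715), and a hypoxia-responsive gene (LOC_Os02g37930) at 216 and 340 RPKM and at 115 and 271 RPKM (adjusted p = 0.337). In both of these the groups overlapped. On the low side, a GTPase-activating protein (LOC_Os07g31720) was at 36.9 and 32.3 RPKM and at 43.7 and 31.8 RPKM, against 170 and 224 RPKM in the control (adjusted p = 0.772). OsWAK82 (LOC_Os09g29540), a kinase associated with the cell wall, was at 0.276 and 0.817 RPKM after dehydration and 0.933 and 1.96 RPKM after rehydration, against 19.5 and 14.95 RPKM in the control, and did not pass the filter. CHIT3 (LOC_Os04g41680), a chitinase, was at 25.2 and 28.7 RPKM after dehydration and at 173 and 117 RPKM after rehydration (2.36 ± 0.64 SE, adjusted p = 0.0438), with groups that did not overlap.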

How the data were processed

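Stranded mRNA libraries of seedling shoots were sequenced as paired ends on a MiSeq. Per the methods of the study, the authors mapped trimmed reads to the rice genome (MSU annotation) in CLC Genomics Workbench with a mismatch allowed and deposited RPKM, with 1 column per library. RPKM are not counts, so the edgeR test of the authors was replaced. RPKM were taken as log2(RPKM + 1) without further scaling into limma 3.58.1 (R 4.3.3), in 1 fit of 3 groups over 6 libraries with moderation by a trend on abundance (3 residual and 3.17 prior degrees of freedom). The test covered transcripts that reached 1 RPKM in 2 or more of the 4 libraries, and p-values were adjusted by Benjamini-Hochberg over all of them. Calls needed an adjusted p under 0.01 and a fold over 2. The procedure was tested on simulated data. Replicates are separate pools of plants, and no batch is labelled. The depth behind RPKM was read as the most common ratio of values under 1 RPKM between libraries.

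Lists were made from keywords in the annotations of the supplementary tables (2744 loci of the table with a named function), from the ABA and IAA response tables, and from tables of nitrogen, hormone and transcription factor genes, with 1 transcript per locus, the one with the highest mean RPKM. They are described by counts and medians, with no test of a list. The jasmonate-raised table was shortened and not used. The table of changed transcripts was also shortened, and the part at hand was used for annotation. Members and lists were chosen with earlier results of these data known. Named are the 15 largest changes in each direction with a named function, the qRT-PCR genes, up to 4 called and 2 abundant members of a list, and the 5 most abundant annotated transcripts listed at 0 in a group. Not every transcript that this rule takes is printed. Promoters were not analysed here, since the gene table at hand could not be matched to the loci. Alternatives were the pseudocount, filter, scaling, libraries in the fit, trend, replicate block, locus sums, threshold and leaving out each library. Python with numpy, pandas and matplotlib did the other steps.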

Additional observations from a re-analysis of the deposited data

How the results depend on the processing

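All 1586 called transcripts kept their direction under each alternative in which they were tested again, except for 7 of 601 from loci with several models when models were summed, but the counts moved. Filters, trend, replicate block, threshold and control libraries do not enter the fold change of a transcript, so its direction was fixed under those alternatives. Direction could have changed only with the pseudocount, the scaling, the locus sums or a dehydration or rehydration library left out. Counts of higher and lower transcripts were 728 and 107 with a pseudocount of 0.1, 289 and 64 with no filter, 774 and 183 without the trend, 2469 and 642 with RPKM summed over a locus, 3949 and 1248 at an adjusted p under 0.05, and 0 and 0 with only the 4 libraries compared in the fit. With the filter at 5 RPKM they were 1654 and 398. Median-ratio scaling gave 503 lower transcripts, and quantile normalization gave a median log2 fold change of -0.079. Without 1 library this median lay between 0.15 and 0.31. Leaving out 1 library gave between 0 and 1472 higher and between 0 and 200 lower transcripts. With 1 library left in a group, it is assumed to vary like the other groups. No source says that equal replicate numbers mark shared material, and deviations of same-numbered libraries correlated at 0.063, 0.141 and 0.217. The replicate block gave 1216 and 307 calls, 1252 of them shared. Of 107 called transcripts taken by the naming rule, 93 passed the test after median-ratio scaling, 101 after quantile normalization, 93 with the replicate block, 63 with a pseudocount of 0.1 and 43 with no filter. After median-ratio scaling LOC_Os03g63950 and LOC_Os07g31720, which were not called, turned to -0.15 and -0.21, and WRKY95 (LOC_Os12g02440) turned to 0.13 with locus sums. With 1 library left out, the log2 fold change lay between -0.045 and 0.39 for LOC_Os03g63950_1, -0.12 and 0.33 for LOC_Os07g31720, -0.46 and 0.15 for LOC_Os04g43680, and -1.23 and 0.0023 for LOC_Os02g37930. Transcripts with a mean under 2 RPKM had a median SE of 0.36, beside 0.22 for those between 20 and 100 RPKM, and the part of depth in this was not tested.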
